A study of Mus musculus with 2 samples.

Results

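The 9 genes described here are Axin2, Lgr5, Rnf43, Znrf3, Lef1, Tcf7, Nkd1, Sp5 and Notum, which are widely used readouts of canonical Wnt signalling and of its negative feedback. They were taken by symbol from the 25906 genes counted in each of 2 single-cell libraries, and all 9 were listed in both. The libraries came from induced myogenic progenitor cells (iMPCs), a self-renewing muscle progenitor culture made from mouse embryonic fibroblasts, 1 from a MyoD-KO clone and 1 from a MyoD-WT clone, both at passage 4. The fibroblasts had been reprogrammed by forced Myf6 with forskolin, RepSox and CHIR99021, and colonies that no longer needed Myf6 were picked. Both clones carry the strain label Myod1tm1Jae and grew in the same medium with 10 ng/mL bFGF, 5 µM forskolin (which raises cyclic AMP), 5 µM RepSox (a TGF-β receptor inhibitor) and 3 µM CHIR99021 (a GSK3 inhibitor). No culture without CHIR99021 was analysed here, so its effect on these genes was not measured. With 1 clone and 1 library per genotype, genotype and clone cannot be told apart and no difference between them was tested; every interval below is a 95% interval that covers counting error only.

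In canonical Wnt signalling, GSK3 within the destruction complex marks β-catenin for degradation. Wnt binding to Frizzled and LRP receptors, or inhibition of GSK3, lets β-catenin accumulate and act with TCF/LEF factors on target genes. Several targets restrain the pathway in turn: AXIN2 rebuilds the destruction complex, RNF43 and ZNRF3 are membrane ubiquitin ligases that remove Frizzled from the cell surface, NKD1 acts on Dishevelled, and NOTUM is a secreted enzyme that strips the lipid from Wnt proteins. LGR5 is a receptor for R-spondins, which draw RNF43 and ZNRF3 away from Frizzled. LEF1 and TCF7 are DNA-binding partners of β-catenin, and SP5 is a transcription factor that responds to Wnt in many embryonic cells. In muscle, PAX7 marks progenitors and MYOG marks cells that have entered differentiation.

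Cells were divided by marker transcripts into muscle-rich cells (11 contractile genes together at least 5% of a cell's UMIs, the counted RNA molecules), Crabp1/Dcn-positive cells (both genes together at least 200 CPM, the UMIs of a gene scaled to a total of 1000000), Myog+ cells (Myog at least 200 CPM) and Pax7+ cells (Pax7 at least 50 CPM and at least 2 UMIs), in that order and without overlap. MyoD-KO gave 3065 Pax7+, 1063 Myog+, 930 muscle-rich and 168 Crabp1/Dcn-positive cells of 5782 kept, and MyoD-WT gave 4312, 1577, 614 and 5 of 7316. The 5 Crabp1/Dcn-positive MyoD-WT cells were too few to compare. The median depth was 40929.5 UMIs per cell in MyoD-KO and 35515.5 in MyoD-WT, and 14 cell barcodes occurred in both libraries. Fibroblast markers summed to 5905 CPM in the Crabp1/Dcn-positive MyoD-KO cells and to 540.2 CPM in MyoD-KO and 88.3 CPM in MyoD-WT Pax7+ cells. In muscle-rich cells 7 muscle markers summed to 51330 CPM in MyoD-KO and 37950 CPM in MyoD-WT. The fibroblast list holds the gating genes Crabp1 and Dcn, and all 7 muscle markers but Ckm are among the 11 contractile genes. The gates thus raise the sums of the gated groups, which are no independent check of what those cells are. Endothelial, immune, neural and epithelial marker lists each summed to at most 9.83 CPM in every group compared, and Ptprc, Sox10 and Kdr had 0 UMIs over all kept MyoD-KO cells. Myod1 itself was counted at 53.7 CPM in MyoD-KO and 128 CPM in MyoD-WT Pax7+ cells; the position of the deletion relative to the sequenced 3′ end is not given in the sources used here, so this does not check the labels.

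The letters CTTTGA, the core of the site that TCF/LEF factors bind, were looked up in the 250 bases before each RefSeq transcription start of the members (RefSeq, GRCm38.p6). Promoters were listed for 6 of the 9 genes, 11 in all. The core, read on both strands, was found in 2 of the 11, those of Sp5 and of the fourth listed start of Lef1, and in 13.8% of all 32851 promoters of the same length. Among the 11, only the Sp5 promoter held the longer form CTTTGAT, which 3.21% of all promoters hold and which overlaps the core; CTTTGAA, in 4.46% of all promoters, was in none of the 11. The 4 promoters below set these 2 beside the Axin2 promoter and the second Rnf43 promoter, which hold no core; capitals mark the core on either strand, and each is written 5′ to 3′ on the gene's strand, all plus. The Sp5 sequence is chr2:70474673-70474922, with matches 204 and 104 bases before the start. The Lef1 sequence is chr3:131156044-131156293, inside the Lef1 locus downstream of the other 3 listed starts, with matches 180 and 120 bases before the start on the opposite strand. The first transcribed bases of this and the other 3 Lef1 starts were not found in the transcripts of GENCODE, another annotation. This also held for the Nkd1 start and the second Tcf7 start. The windows of the first and second Lef1 starts overlap, so the 11 are not all separate. The Axin2 sequence is chr11:108920099-108920348 and the Rnf43 sequence chr11:87699647-87699896.
Sp5: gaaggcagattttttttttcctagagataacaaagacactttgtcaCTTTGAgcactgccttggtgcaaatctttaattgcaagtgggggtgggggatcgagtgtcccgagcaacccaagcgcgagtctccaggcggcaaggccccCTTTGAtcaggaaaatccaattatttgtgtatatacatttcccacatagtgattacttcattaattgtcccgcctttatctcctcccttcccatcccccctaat
Lef1: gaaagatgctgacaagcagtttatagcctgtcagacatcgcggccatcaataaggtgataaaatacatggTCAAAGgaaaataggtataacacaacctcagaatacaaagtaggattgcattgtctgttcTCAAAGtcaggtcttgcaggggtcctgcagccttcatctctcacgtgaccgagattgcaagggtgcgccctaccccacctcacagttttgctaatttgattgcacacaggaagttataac
Axin2: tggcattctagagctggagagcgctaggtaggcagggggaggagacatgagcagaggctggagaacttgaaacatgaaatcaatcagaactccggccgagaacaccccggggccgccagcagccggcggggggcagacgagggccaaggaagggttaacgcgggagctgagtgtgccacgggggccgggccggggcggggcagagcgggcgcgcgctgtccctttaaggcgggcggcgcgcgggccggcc
Rnf43: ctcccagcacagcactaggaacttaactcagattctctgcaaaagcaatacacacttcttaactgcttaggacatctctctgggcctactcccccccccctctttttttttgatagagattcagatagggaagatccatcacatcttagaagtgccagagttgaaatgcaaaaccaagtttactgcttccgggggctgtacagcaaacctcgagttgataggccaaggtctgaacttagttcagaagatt
A match is a description of the letters, an absent match says only that these letters are not in this window, and no binding was measured.

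Within Pax7+ cells the R-spondin receptor Lgr5, the ubiquitin ligase Rnf43 and the transcription factor Lef1 were all at least 2-fold lower in MyoD-KO than in MyoD-WT, while Znrf3 and Nkd1 were less than 2-fold apart. A gene was compared where it reached 10 CPM in the higher of the 2 groups, which 5 of the 9 members did in Pax7+ cells, and it was called where the groups were at least 2-fold apart. The 3 calls among 5 members compare with 17.9% of the 8709 genes compared, of which 13.9% were higher and 4.01% lower in MyoD-KO. Other marker lists differed between the same Pax7+ cells. Fibroblast markers summed to 540.2 CPM in MyoD-KO and 88.3 CPM in MyoD-WT, of which Col3a1 made 501 and 87.4 CPM, while the gating genes Crabp1 and Dcn were under 3 CPM in both. Committed myocyte markers summed to 2908 CPM in MyoD-KO and 566.7 CPM in MyoD-WT, of which the cell cycle inhibitor Cdkn1c made 2748 and 453.7 CPM and Myog 26.8 and 22.2 CPM. Their part in the differences of Lgr5, Rnf43 and Lef1 was not tested. The median log2 ratio of MyoD-KO over MyoD-WT was -2.21 over the 5 members compared, against 0.08 over all genes compared. Rnf43 and Lef1 reached 10 CPM only in MyoD-WT. Of the members under 10 CPM, Tcf7 (ratio 2.30) and Notum (12.1) were higher in MyoD-KO and Axin2 (0.678) was lower. Sp5 had 0 UMIs in MyoD-KO and 2 in MyoD-WT. The median therefore does not stand for all 9 members. In Myog+ cells 2 of 5 members were called, Rnf43 and Lef1, both lower in MyoD-KO, against 14.6% of 8366 genes (10.7% higher, 3.93% lower). In muscle-rich cells 1 of 2 was called, Nkd1, again lower in MyoD-KO, against 15.8% of 7547 genes (11.2% higher, 4.64% lower). Over all kept cells 3 of 5 were called, the same ones as in Pax7+ cells, against 16.8% of 8792 genes (13.4% higher, 3.37% lower). No member was called higher in MyoD-KO in these 4 comparisons, but Tcf7 and Notum, being under 10 CPM, could not be called. With a minimum of 5 CPM, Tcf7 passed as higher in MyoD-KO in Pax7+ cells (7.67 CPM, ratio 2.30). It passed over all kept cells too (6.36 CPM, ratio 2.24). At that minimum 16.2% of genes were higher and 4.32% lower in Pax7+ cells. The absence of higher calls therefore depends on the 10 CPM limit. TMM scaling sets the libraries level on a trimmed and weighted mean of gene ratios. It moved the median log2 ratio of the genes compared in Pax7+ cells from 0.08 to -0.13, so it did not centre them. Under it 10.9% were higher and 6.7% lower in Pax7+ cells, and 7.66% and 6.12% in Myog+ cells. In muscle-rich cells it gave 8.9% and 6.32%, and over all kept cells 10.6% and 5.37%.

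**Figure D1:**
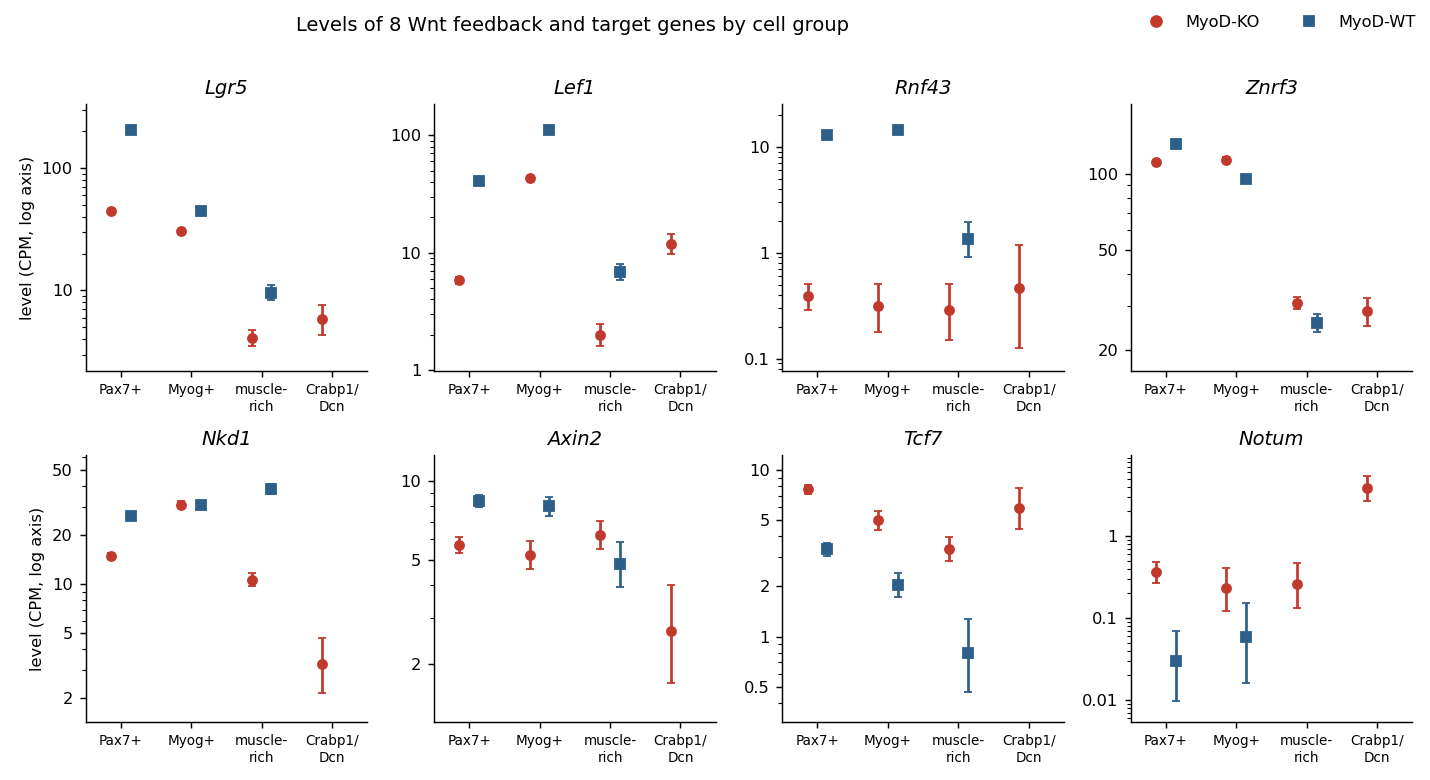
Level of 8 of the genes (CPM from summed UMIs, log axis) in each cell group, MyoD-KO as circles and MyoD-WT as squares, with 95% counting intervals. Lgr5 was 44.5 CPM in MyoD-KO and 205 CPM in MyoD-WT Pax7+ cells; MyoD-WT Crabp1/Dcn-positive cells (5) and a MyoD-WT muscle-rich Notum count of 0 are not drawn.

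Lgr5 (ENSMUSG00000020140) was the member most tied to Pax7+ cells in MyoD-WT. In MyoD-KO it stood at 44.5 CPM in Pax7+ (5871 UMIs), 30.4 in Myog+, 4.12 in muscle-rich and 5.82 CPM in Crabp1/Dcn-positive cells. In MyoD-WT it stood at 205 CPM in Pax7+ (34250 UMIs), 44.9 in Myog+ and 9.62 CPM in muscle-rich cells. MyoD-KO over MyoD-WT was 0.217 (interval 0.211 to 0.223) in Pax7+ cells and 0.677 (0.637 to 0.720) in Myog+ cells. The Pax7+ intervals of the libraries lay far apart, and the Myog+ ratio was short of 2-fold. Leaving the cells that also passed the Pax7 gate out of the Myog+ group turned the Myog+ log2 ratio from -0.56 to 0.37. The order Pax7+, Myog+, muscle-rich was the same in both libraries, and the intervals of Crabp1/Dcn-positive and muscle-rich cells of MyoD-KO overlapped. Some of the low levels lay in cells with high doublet scores: with the 6% of cells with the highest scores removed, Lgr5 was 0.421 CPM in Crabp1/Dcn-positive and 1.51 CPM in muscle-rich MyoD-KO cells. The same removal left Myog+ cells at 30.6 CPM in MyoD-KO and at 26.3 CPM in MyoD-WT, so the Lgr5 difference between Myog+ cells turned round there too.

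Lgr5 was also found in fewer Pax7+ cells of MyoD-KO. With each cell thinned to 5000 UMIs, 15.4% of MyoD-KO and 57.9% of MyoD-WT Pax7+ cells held an Lgr5 UMI (51.2% and 95.9% without thinning, at median depths of 39316 and 36208.5 UMIs). In muscle-rich cells the thinned shares were 1.46% in MyoD-KO and 2.7% in MyoD-WT (median depths 48046.5 and 35204 UMIs), and 0 of 167 Crabp1/Dcn-positive MyoD-KO cells held one, which allows up to 1.8% of cells with an Lgr5 UMI at that thinned depth; without thinning 6.55% of them held one (median depth 46083 UMIs). At 20000 UMIs per cell, MyoD-KO Pax7+ cells averaged 0.822 Lgr5 UMIs with a variance 2.7 times the mean, and MyoD-WT Pax7+ cells averaged 3.99 with a variance 2.01 times the mean. A total of 62.2% of these MyoD-KO cells and 7.96% of the MyoD-WT cells held none, where an even spread over cells would leave 44.0% and 1.84%. The counts were therefore more uneven between cells than counting alone gives in both libraries.

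**Figure D2:**
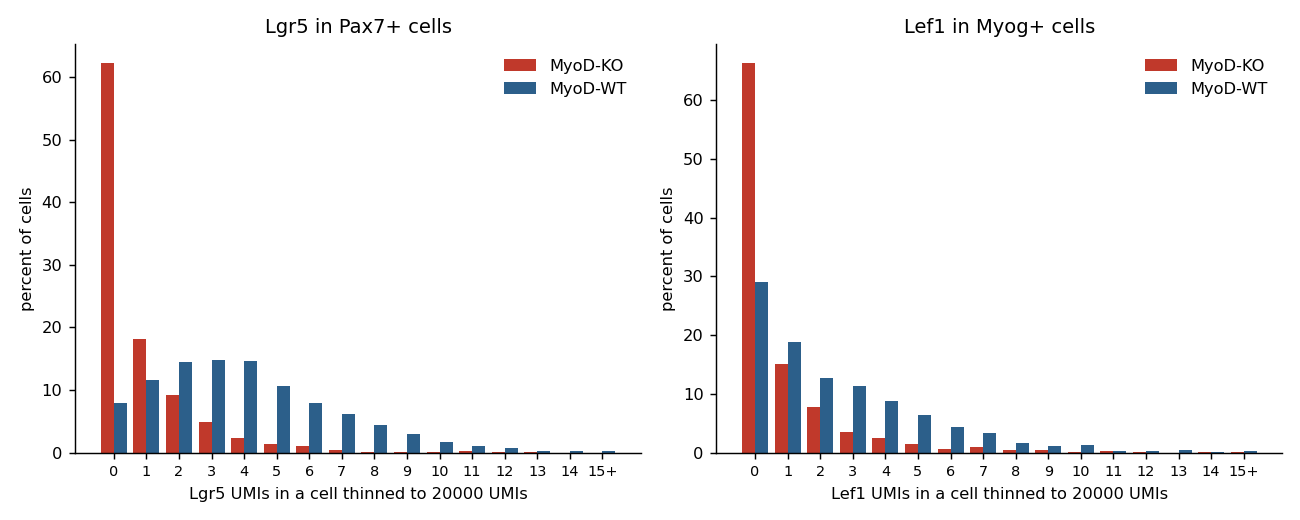
Share of cells (percent) by number of Lgr5 UMIs in Pax7+ cells (left panel) and of Lef1 UMIs in Myog+ cells (right panel), each cell thinned to 20000 UMIs, MyoD-KO as the left bar and MyoD-WT as the right bar of each pair. For Lgr5, 62.2% of MyoD-KO and 7.96% of MyoD-WT Pax7+ cells fall at 0.

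Lgr5 differed little with cell cycle genes within Pax7+ cells. In Pax7+ cells above their library's median for 10 proliferation genes it was 45.9 CPM in MyoD-KO and 212 CPM in MyoD-WT, and in those below it 42.4 CPM in MyoD-KO and 196 CPM in MyoD-WT. In MyoD-WT it was 171, 201 and 239 CPM in cells with Pax7 at 50 to 100, 100 to 200 and at least 200 CPM; in MyoD-KO the same steps gave 40.5, 44.1 and 46.3 CPM. Pax7+ cells with at least 100 CPM of Car9, a carbonic anhydrase induced by low oxygen, had less Lgr5: 22.6 CPM in 258 MyoD-KO cells, against 46.2 CPM in MyoD-KO Pax7+ cells with less Car9, and 91.0 CPM in 92 MyoD-WT cells, against 207 CPM in the rest. The same MyoD-WT cells had 19.7 CPM of Lef1 and 4.37 CPM of Rnf43, against 40.8 and 13.0 CPM in the rest. Nkd1 ran the other way, at 19.1 CPM in MyoD-KO and 40.4 CPM in MyoD-WT cells with much Car9, against 14.6 CPM in the rest of MyoD-KO and 26.1 CPM in the rest of MyoD-WT. Znrf3 was near level, at 97.3 against 112.5 CPM in MyoD-KO and 127 against 131 CPM in MyoD-WT.

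Rnf43 (ENSMUSG00000034177) was under 1 CPM in every MyoD-KO group. It rested on 51 UMIs in Pax7+ cells and on 4 UMIs, close to the detection limit, in Crabp1/Dcn-positive cells. MyoD-KO held 88 Rnf43 UMIs over all kept cells (0.348 CPM) and MyoD-WT 3368 (12.1 CPM). By group, MyoD-KO had 0.386 CPM in Pax7+, 0.314 in Myog+, 0.287 in muscle-rich and 0.466 CPM in Crabp1/Dcn-positive cells, and MyoD-WT had 12.8 CPM in Pax7+, 14.2 in Myog+ and 1.36 CPM in muscle-rich cells. The ratio of MyoD-KO over MyoD-WT was 0.0301 (0.0223 to 0.0397) in Pax7+ cells, a level 33.2-fold lower, and 0.0221 (0.0126 to 0.0360) in Myog+ cells. At 5000 UMIs per cell, 0.228% of MyoD-KO and 5.85% of MyoD-WT Pax7+ cells held an Rnf43 UMI, and 0 of 167 Crabp1/Dcn-positive MyoD-KO cells did (1.47%, 28.3% and 0.595% without thinning). The intervals of the libraries did not overlap in Pax7+, Myog+ or muscle-rich cells.

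Znrf3 (ENSMUSG00000041961), which encodes the ligase most like RNF43, was near level between the libraries. It was 111 CPM in Pax7+, 113.5 in Myog+, 30.7 in muscle-rich and 28.5 CPM in Crabp1/Dcn-positive MyoD-KO cells, and 131 CPM in Pax7+, 95.1 in Myog+ and 25.6 CPM in muscle-rich MyoD-WT cells. MyoD-KO over MyoD-WT was 0.851 (0.833 to 0.869) in Pax7+, 1.19 (1.15 to 1.24) in Myog+ and 1.20 (1.08 to 1.33) in muscle-rich cells. Pax7+ and Myog+ cells of MyoD-KO had overlapping Znrf3 intervals, and muscle-rich cells of both libraries were well below them. The muscle-rich over Pax7+ ratio was 0.276 in MyoD-KO and 0.196 in MyoD-WT.

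Axin2 (ENSMUSG00000000142), the scaffold protein most often read as a Wnt target, was under 10 CPM in these groups and less than 2-fold apart between the libraries in Pax7+, Myog+ and muscle-rich cells. It was 5.71 CPM in Pax7+, 5.22 in Myog+, 6.23 in muscle-rich and 2.68 CPM in Crabp1/Dcn-positive MyoD-KO cells, and 8.43 CPM in Pax7+, 7.999 in Myog+ and 4.81 CPM in muscle-rich MyoD-WT cells. The MyoD-KO over MyoD-WT ratio was 0.678 (0.620 to 0.741) in Pax7+, 0.653 (0.562 to 0.758) in Myog+ and 1.29 (1.03 to 1.64) in muscle-rich cells. These ratios were within 2-fold, and Axin2 was below the level used for calls. Early Myog+ cells differed more: those with contractile genes under 0.5% of UMIs had 3.81 CPM (3.05 to 4.70) in MyoD-KO and 8.27 CPM (6.88 to 9.86) in MyoD-WT, and those at 0.5 to 2% had 5.84 CPM (4.13 to 8.02) in MyoD-KO and 12.8 CPM (10.7 to 15.1) in MyoD-WT. The intervals of the 3 muscle-lineage groups of MyoD-KO overlapped.

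Nkd1 (ENSMUSG00000031661) was the one member at 10 CPM or more that was called between the muscle-rich cells of the libraries; under 10 CPM, Rnf43 (ratio 0.212) and Tcf7 (4.25) differed by more. It was 14.9 CPM in Pax7+, 30.7 in Myog+, 10.7 in muscle-rich and 3.26 CPM in Crabp1/Dcn-positive MyoD-KO cells, and 26.3 CPM in Pax7+, 30.5 in Myog+ and 38.3 CPM in muscle-rich MyoD-WT cells. MyoD-KO over MyoD-WT was 0.279 (0.248 to 0.314) in muscle-rich cells, 1.01 (0.943 to 1.08) in Myog+ cells and 0.566 (0.536 to 0.597) in Pax7+ cells. The muscle-rich log2 ratio of -1.84 became -1.12 with a muscle-rich gate of 10%, still lower in MyoD-KO. The Pax7+ difference became at least 2-fold, with a log2 ratio of -1.06, under median-of-ratios scaling. Muscle-rich cells over Myog+ cells gave 0.348 (0.313 to 0.387) in MyoD-KO and 1.26 (1.16 to 1.36) in MyoD-WT. Nkd1, Lgr5, Znrf3 and Lef1 were called lower in MyoD-KO in this comparison, and Lgr5, Rnf43, Znrf3 and Lef1 in MyoD-WT. Over all genes 34.9% were called in MyoD-KO (8.68% higher, 26.2% lower) and 27.7% in MyoD-WT (7.23% higher, 20.5% lower), or 15.4% higher and 13.8% lower in MyoD-KO and 10.9% and 12.4% in MyoD-WT under TMM scaling. The muscle-rich group itself differed between the libraries, since the 11 contractile genes took 8.45% of its UMIs in MyoD-KO and 6.98% in MyoD-WT. A total of 899 further MyoD-KO and 114 MyoD-WT barcodes passed the muscle gate but failed the cell filter, and Nkd1 in them was 4.96 CPM in MyoD-KO and 28.1 CPM in MyoD-WT.

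Notum (ENSMUSG00000042988) was scarce, and its level in MyoD-KO was highest in Crabp1/Dcn-positive cells and in cells that passed no gate. MyoD-KO held 167 UMIs over all kept cells, 48 of them in Pax7+ and 63 in ungated cells, and MyoD-WT held 12. The ungated MyoD-KO cells also held progenitor markers, at a sum of 607.3 CPM, so they are not shown to lie outside the muscle lineage. In MyoD-KO it was 3.84 CPM in Crabp1/Dcn-positive cells (33 UMIs, interval 2.65 to 5.40 CPM) and 3.20 CPM in the cells that passed no gate, against 0.364 CPM in Pax7+, 0.236 in Myog+ and 0.264 CPM in muscle-rich cells. In MyoD-WT it was 0.0299 CPM in Pax7+ and 0.0594 CPM in Myog+ cells, with 0 UMIs in muscle-rich cells. The intervals of the 2 MyoD-KO groups with more Notum overlapped and lay above those of the other 3. No call was made under 10 CPM.

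Lef1 (ENSMUSG00000027985) marked the first part of differentiation in both libraries and was lower in MyoD-KO throughout. In MyoD-KO it was 5.80 CPM in Pax7+, 43.4 in Myog+, 1.99 in muscle-rich and 11.9 CPM in Crabp1/Dcn-positive cells. In MyoD-WT it was 40.4 CPM in Pax7+, 111 in Myog+ and 6.87 CPM in muscle-rich cells. MyoD-KO over MyoD-WT was 0.143 (0.133 to 0.155) in Pax7+ cells and 0.390 (0.372 to 0.409) in Myog+ cells. The Myog+ over Pax7+ ratio was 7.49 (6.89 to 8.14) in MyoD-KO and 2.75 (2.67 to 2.85) in MyoD-WT. At 5000 UMIs per cell, 16.3% of MyoD-KO and 37.5% of MyoD-WT Myog+ cells held a Lef1 UMI, against 0.730% of MyoD-KO and 1.69% of MyoD-WT muscle-rich cells (43.0% and 79.6% of Myog+ cells without thinning, at median depths of 43734 and 38110 UMIs). Among Myog+ cells at 20000 UMIs the variance of Lef1 was 4.22 times its mean in MyoD-KO and 2.97 times in MyoD-WT.

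Tcf7 (ENSMUSG00000000782), the other member that binds DNA with β-catenin, ran the opposite way at a low level. It was 7.67 CPM in Pax7+, 4.99 in Myog+, 3.38 in muscle-rich and 5.94 CPM in Crabp1/Dcn-positive MyoD-KO cells, and 3.34 CPM in Pax7+, 2.05 in Myog+ and 0.794 CPM in muscle-rich MyoD-WT cells. MyoD-KO over MyoD-WT was 2.30 (2.07 to 2.56), 2.44 (1.97 to 3.02) and 4.25 (2.56 to 7.51) in these 3 groups. The libraries' intervals did not overlap in any of them, but all levels were under the 10 CPM needed for a call. Sp5 (ENSMUSG00000075304), whose promoter above held the core on the gene's own strand, had 0 UMIs in MyoD-KO and 2 UMIs in MyoD-WT, both in Pax7+ cells. A count of 0 over all kept MyoD-KO cells allows up to 0.0119 CPM.

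**Figure D3:**
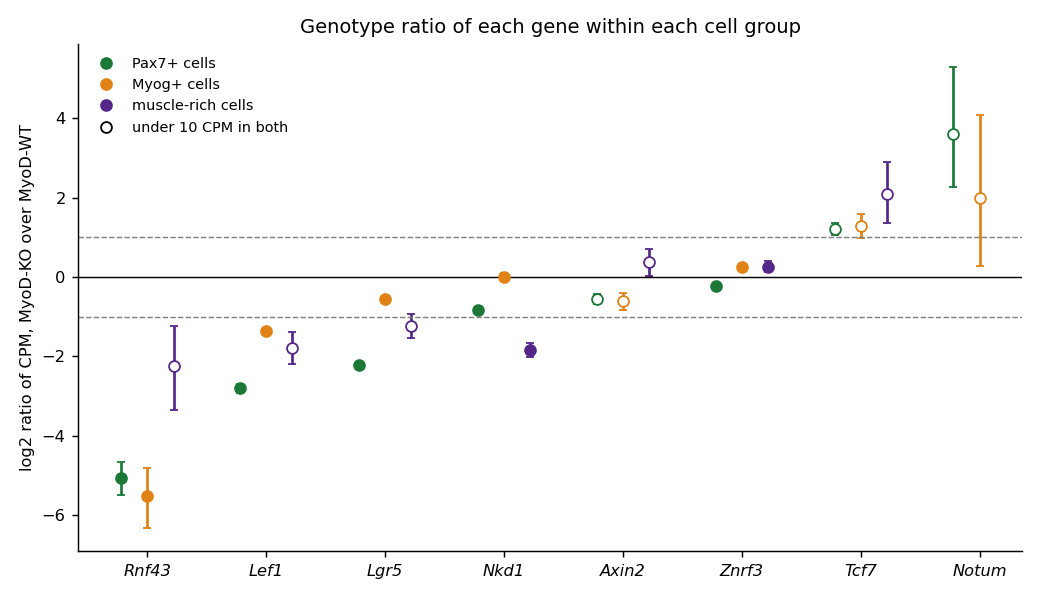
Log2 ratio of CPM, MyoD-KO over MyoD-WT, for each gene in Pax7+, Myog+ and muscle-rich cells, with 95% counting intervals; dashed lines mark 2-fold, and open points are under 10 CPM in both libraries. Rnf43 in Myog+ cells lies lowest, at -5.50, and a gene with 0 UMIs in either library has no point.

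Set over 7 steps by gate and contractile RNA, Lef1, Nkd1 and Lgr5 followed different courses. Cells were placed in 7 steps chosen after seeing the data: Pax7+ cells, Myog+ cells that also passed the Pax7 gate, Myog+ cells with contractile genes under 0.5%, at 0.5 to 2% and at 2 to 5% of UMIs, and muscle-rich cells at 5 to 8% and at 8% or more. The second step was not limited by contractile genes. They took 0.925% of its UMIs in MyoD-KO and 0.976% in MyoD-WT, against 0.1987% and 0.2485% in the third step. Its median depth was 46262.5 UMIs in MyoD-KO and 45283 in MyoD-WT, against 42249 and 33189.5 in the third. The first 3 steps are thus not an order of rising contractile RNA, and the part of doublets in the second was not tested. Lef1 ran 5.80, 17.3, 61.1, 77.2, 10.5, 3.67 and 0.417 CPM over these steps in MyoD-KO, and 40.4, 99.5, 181, 175, 34.4, 8.24 and 1.93 CPM in MyoD-WT. It thus peaked in Myog+ cells that held little contractile RNA and was nearly gone in the most muscle-rich cells of both libraries. MyoD-WT was the higher at each of the 7 steps.

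Lgr5 gave 44.5, 39.8, 38.0, 12.6, 2.54, 7.199 and 1.25 CPM over the same steps in MyoD-KO, and 205, 92.8, 31.6, 15.6, 14.7, 10.9 and 5.15 CPM in MyoD-WT. MyoD-KO was far below MyoD-WT in the first 2 steps, slightly above it in the third, within overlapping intervals in the fourth, and again below in the fifth to seventh. Where Lgr5 rose from the fifth to the sixth step of MyoD-KO, Pax7 rose too, from 4.38 to 21.2 CPM, and proliferation genes from 155 to 271 CPM. Cells with high doublet scores are included in these steps, and their part was not tested. Rnf43 in MyoD-WT gave 12.8, 16.6, 25.1, 14.6, 2.63, 1.61 and 0.429 CPM, with its high point at the third step, as Lef1 had. Nkd1 gave 14.9, 28.6, 41.3, 17.5, 13.4, 11.7 and 9.72 CPM in MyoD-KO, and 26.3, 29.0, 29.7, 26.0, 35.3, 39.4 and 34.1 CPM in MyoD-WT. MyoD-KO thus had a single Nkd1 peak in early Myog+ cells where MyoD-WT kept its level into the muscle-rich cells. Znrf3 was lowest in the last 3 steps of both libraries, ending at 21.0 CPM in MyoD-KO and 13.7 CPM in MyoD-WT at the end.

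**Figure D4:**
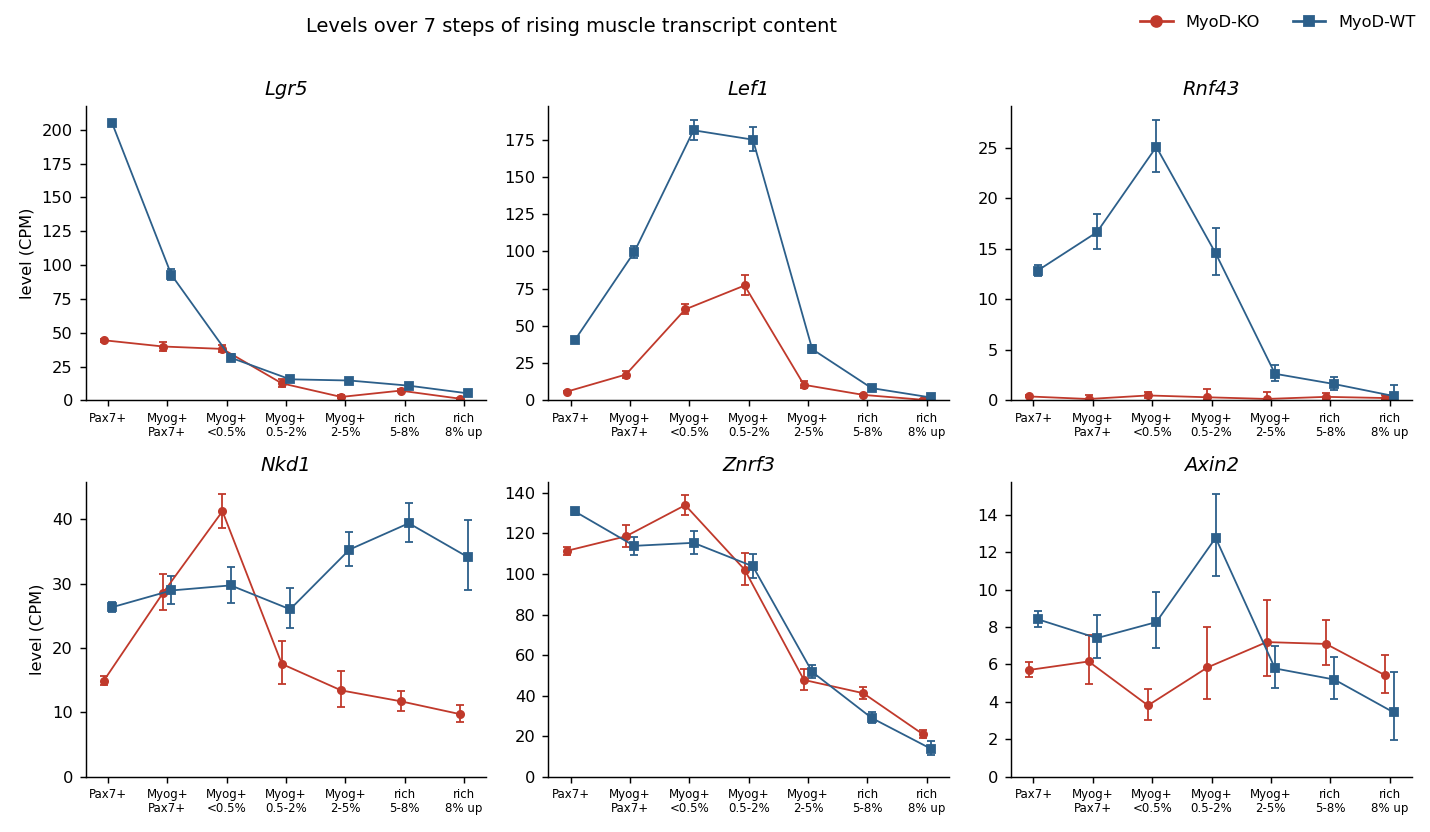
Level (CPM, linear axis from 0) of 6 of the genes over 7 steps from Pax7+ cells through Myog+ cells to muscle-rich cells, the percentages giving the share of UMIs in contractile genes. The second step is not limited by contractile genes and holds more of their RNA than the third. The rising muscle transcript content of the drawn title therefore does not hold from the second step to the third. MyoD-KO is drawn as circles and MyoD-WT as squares, with 95% counting intervals. Lef1 peaks at 77.2 CPM in MyoD-KO and at 181 CPM in MyoD-WT, while Nkd1 ends at 9.72 CPM in MyoD-KO and at 34.1 CPM in MyoD-WT.

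Read within each library, Myog+ over Pax7+ cells called Lef1 (7.49) and Nkd1 (2.06, interval 1.93 to 2.20) higher in MyoD-KO, 2 of 4 members compared, against 15.9% of 8792 genes (6.53% higher and 9.38% lower). Nkd1 came just under 2-fold here, at a log2 ratio of 0.98, when all deposited barcodes were used. In MyoD-WT it called Lef1 (2.75) higher and Lgr5 (0.219, interval 0.211 to 0.227) lower, 2 of 5 members, against 16.3% of 8142 genes (8.07% higher and 8.22% lower, or 9.4% and 5% under TMM scaling). Muscle-rich over Pax7+ cells called Lgr5 (0.0927) and Znrf3 (0.276) lower in MyoD-KO, 2 of 3 members, and Lgr5 (0.0469), Rnf43 (0.106), Znrf3 (0.196) and Lef1 (0.170) lower in MyoD-WT, 4 of 5 members. The size of these ratios depended on the gate: in MyoD-WT the log2 ratio of Lgr5, reported as -4.41, was -7.97 with a muscle-rich gate of 10% and -3.38 with one of 2.5%, and that of Lef1, reported as -2.56, was -3.62 and -1.13. In MyoD-KO that of Lgr5, reported as -3.43, was -6.66 at the 10% gate. Here 46.8% of genes in MyoD-KO and 49.1% in MyoD-WT were called, and lower calls alone made up 35.3% of all genes compared in MyoD-KO and 35.9% in MyoD-WT, so the background was high; under TMM scaling 19.9% and 22.9% were lower. Over all genes the median log2 ratio of this comparison was -0.57 in MyoD-KO and -0.60 in MyoD-WT. Pax7 stood at 10.6% of its library-wide level in muscle-rich cells of MyoD-KO and at 6.48% in those of MyoD-WT. Lgr5 stood at 12.9% and 6.63%, and Lef1 at 15.3% and 12.5%, so Lgr5 was near Pax7 in both libraries and Lef1 above it, and Nkd1 stood at 62.0% and 137%. These shares were taken without removal of the 6% highest doublet scores. With that removal, muscle-rich MyoD-KO cells had 1.51 CPM of Lgr5 and 1.07 CPM of Lef1, against 4.12 and 1.99 CPM as reported. In MyoD-WT they had 7.97 and 5.83 CPM, against 9.62 and 6.87 CPM as reported. Whether the residual Lgr5 and Lef1 counts came from these cells, from doublets or from free RNA was not tested.

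Crabp1/Dcn-positive over Pax7+ cells in MyoD-KO called Lef1 higher (2.05, interval 1.65 to 2.52) and Lgr5 (0.131), Znrf3 (0.256) and Nkd1 (0.219) lower, 4 of 4 members compared, against 25% of 9035 genes (10.6% higher and 14.3% lower, or 13.2% and 11.3% under median-of-ratios scaling). Contractile genes stood at 17.8% and Myog at 12.6% of their library-wide levels in these cells, Lgr5 at 18.2%, Nkd1 at 18.9% and Lef1 at 91.3%. With the 6% highest doublet scores removed, which left 152 of the 168 cells, Lgr5 was 0.421 CPM (3 UMIs, against 50 as reported), Nkd1 1.83 CPM, Znrf3 21.1 CPM and Lef1 13.3 CPM in them. The part of free RNA in these counts was not tested. Lef1 had a log2 ratio of 0.94, under 2-fold, when muscle, mitochondrial and ribosomal protein genes were left out of the totals. Of 42 other pathway genes compared, 6 were called higher and 10 lower in these cells. Among those higher, Wnt5a, a ligand, was 15.1 CPM in them and 3.73 CPM in Pax7+ cells, Fzd1 36.6 and 5.65 CPM, Sfrp4, a secreted inhibitor, 23.3 and 6.28 CPM, Rspo4 17.1 and 0.053 CPM (7 UMIs in Pax7+ cells), and Apcdd1, an inhibitor at the membrane, 16.1 and 0.621 CPM. Among those lower, the secreted inhibitor Sfrp2 was 4.07 CPM in them and 74.5 CPM in Pax7+ cells, the receptor Fzd4 6.17 and 51.6 CPM, and the Wnt5a receptor Ror1 20.8 and 93.1 CPM.

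A list of 96 other pathway genes was set beside the members by role. In Pax7+ cells 39 of them reached 10 CPM, 6 were called higher and 3 lower in MyoD-KO, 9 of 39 beside the 17.9% of all genes, and their median log2 ratio was 0.12. Most core components were near level: Ctnnb1, which encodes β-catenin, was 157 CPM in MyoD-KO and 139 CPM in MyoD-WT, Gsk3b 194 and 160 CPM, Tcf7l1 78.7 and 58.3 CPM, and Tcf7l2 102 and 106 CPM. Of 8 receptors compared, Fzd3 was called, lower in MyoD-KO at 27.8 CPM against 62.3 CPM in MyoD-WT. Of R-spondins and their receptors, Rspo3 was 26.8 CPM in MyoD-KO and 8.20 CPM in MyoD-WT, a ratio of 3.27 (3.07 to 3.48), while Lgr4, a close relative of Lgr5, was 19.7 and 25.2 CPM, with a ratio of 0.782. Of 11 destruction complex and Dishevelled genes, Dvl1 was called (ratio 2.20).

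Of 10 nuclear factors compared in Pax7+ cells, the corepressor Tle1 (ratio 2.77) and the β-catenin inhibitor Ctnnbip1 (2.11) were called higher and the corepressor Tle4 (0.379) lower in MyoD-KO. Of 6 other known targets, Lbh and Ccnd1, which encodes cyclin D1, were called higher and Tnfrsf19 lower. Ccnd1 was 308 CPM in MyoD-KO and 70.1 CPM in MyoD-WT, a ratio of 4.40 (4.31 to 4.49), and Lbh 19.7 CPM and 1.82 CPM, a ratio of 10.8. Tnfrsf19 was 9.51 and 19.6 CPM, and Myc 33.7 and 42.5 CPM. Targets thus differed in both directions between the libraries, with Lgr5, Rnf43, Lef1 and Tnfrsf19 lower and Ccnd1 and Lbh higher in MyoD-KO. Of the 21 genes for Wnt ligands and their release, only Wls, the carrier that brings Wnt proteins to the cell surface, reached 10 CPM, at 148 CPM in MyoD-KO and 121 CPM in MyoD-WT.

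**Figure D5:**
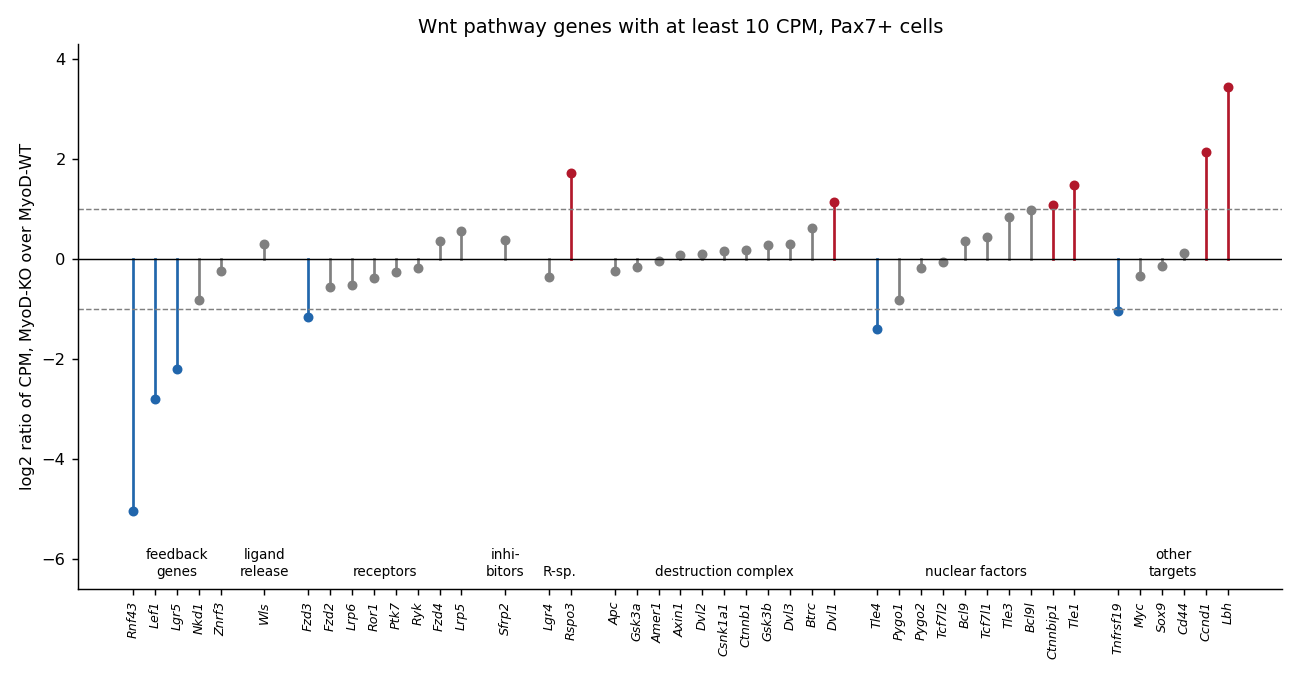
Log2 ratio of CPM, MyoD-KO over MyoD-WT, in Pax7+ cells for the 5 members and 39 other Wnt pathway genes with at least 10 CPM, in order of size within each role; red points are at least 2-fold higher, blue at least 2-fold lower and grey less than 2-fold apart. Rnf43 lies lowest at -5.05 and Lbh highest at 3.44.

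The same pathway list gave 5 higher and 1 lower of 36 compared in Myog+ cells, beside 14.6% called over all genes, and 7 higher and 2 lower of 35 in muscle-rich cells, beside 15.8%. The Myog+ share is near that of all genes, so these values describe single genes and not the pathway. In Myog+ cells Rspo3 was 59.2 CPM in MyoD-KO and 7.96 CPM in MyoD-WT (ratio 7.44), Tle1 69.0 and 12.2 CPM (5.67), Ccnd1 151 and 40.4 CPM (3.73), Dvl1 20.6 and 6.72 CPM (3.07), the secreted inhibitor Sfrp2 32.2 and 15.1 CPM (2.14), and Tle4 17.8 and 40.7 CPM (0.436). In muscle-rich cells Porcn, which attaches the lipid to Wnt proteins, was 23.9 CPM in MyoD-KO and 7.47 CPM in MyoD-WT (ratio 3.20), Fzd6 10.8 and 2.52 CPM (4.29), Amer1 31.1 and 11.4 CPM (2.73), Dvl1 39.9 and 10.8 CPM (3.69), Ccnd1 30.1 and 4.39 CPM (6.85), Myc 12.2 and 5.47 CPM (2.24), and Lbh 14.9 and 4.81 CPM (3.09). Fzd3 (0.449) and Ptk7 (0.461) were the 2 lower there. Dvl1 and Ccnd1 were called higher in MyoD-KO in all 3 cell groups.

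Within a group, most pairs of members showed little relation from cell to cell. At 20000 UMIs per cell, Pearson r of log counts between Lgr5 and Znrf3 was 0.118 over 3038 MyoD-KO and 0.131 over 4233 MyoD-WT Pax7+ cells, and between Lgr5 and Lef1 it was 0.0304 and -0.00226. In sparse counts from 1 library values this small are no finding. The largest r between members was that of Znrf3 and Lef1 in MyoD-WT Myog+ cells, at 0.276 over 1500 cells, against 0.112 over 1010 MyoD-KO Myog+ cells; MyoD-WT Myog+ cells averaged 2.75 Lef1 UMIs where Znrf3 was detected and 1.53 where it was not. With the gating genes in Myog+ cells, Lef1 and Myog gave 0.268 in MyoD-KO and 0.107 in MyoD-WT, Lgr5 and Myog gave -0.198 over 1010 MyoD-KO and -0.460 over 1500 MyoD-WT cells, and Lgr5 and Pax7 gave 0.0864 and 0.441. MyoD-WT Myog+ cells with an Lgr5 UMI averaged 11.1 Myog and 1.38 Pax7 UMIs, and those without averaged 21.9 and 0.386. Cells with high doublet scores are included in these values. Removing the 6% highest scores took Lgr5 in Myog+ cells from 44.9 to 26.3 CPM in MyoD-WT and from 30.4 to 30.6 CPM in MyoD-KO. The part of doublets in these relations was not tested.

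The genes closest in pattern to each member were ranked by Pearson r of log2(CPM + 1) over 7 groups, 4 of MyoD-KO and 3 of MyoD-WT, among 9604 genes; groups of 1 library share its depth. Nearest to Lgr5 were Mgme1 (0.993), Wdr82 (0.991) and Rif1 (0.990). Nearest to Rnf43 were Hax1 (0.979), Hs3st3b1 (0.975) and Prkcq (0.969). The r does not weigh the size of a difference, and the highest of 9604 values over 7 groups are high by selection. In Pax7+ cells Hax1 was 50.7 CPM in MyoD-KO and 92.5 CPM in MyoD-WT. Hs3st3b1 was 0.848 and 10.7 CPM, and Prkcq, a protein kinase C, 0.144 and 32.5 CPM. Nearest to Znrf3 were Ccdc58 (0.999), Ecd (0.996) and Adck1 (0.995). Nearest to Lef1 were Ythdc2 (0.952), Zeb1 (0.943) and Traf6 (0.938), with Zeb1, a transcription factor, at 544 CPM in MyoD-KO and 738 CPM in MyoD-WT Myog+ cells. Nearest to Nkd1 were Celf2 (0.981), Wdr45b (0.971) and Arhgap29 (0.968).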

How the data were processed

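RNA of single cells was read from the 3′ end with the 10x Chromium v3.1 kit, per the labels' protocols. The deposited values are whole UMI counts, not normalized, and come from Cell Ranger 7.2.0 according to the file headers. GRCm39 and the tools Cell Ranger and Seurat appear, without roles, in the submitters' processing notes, and the annotation release is not given in the sources used here. Of 7670 MyoD-KO and 8191 MyoD-WT barcodes, those with at least 1000 genes and at most 15% mitochondrial UMIs were kept. Scrublet (scanpy 1.11.5) called 0 MyoD-KO and 2 MyoD-WT doublets, too few to be relied on; the called cells were removed, and removal of the 6% highest scores was an alternative. UMIs were summed per library and cell group and divided by their total (CPM), with exact Poisson intervals and exact conditional intervals of ratios; shares have Clopper-Pearson intervals, and a count of 0 is given the limit that 3 counts set. With 1 library per genotype no test was run. Calls needed 2-fold and 10 CPM in the higher group. The calling step was run on simulated counts that vary by counting error only. That run holds no difference between clones or libraries, so it cannot show how reliable the calls are here. All members are named; likeness gives the 3 genes of highest r per member of at least 10 CPM; of the 96 pathway genes, up to 4 called per role were named per genotype comparison, with level core components and the Crabp1/Dcn-positive values chosen after their values were seen, as were the Car9 split, the 7 steps and the muscle-rich over Myog+ comparison. The members, lists and gates were chosen with earlier results of these data known. Of the promoters, the bases after the transcription start were not searched for the core.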

Additional observations from a re-analysis of the deposited data

Results flagged for a closer look

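Znrf3 was lower in MyoD-KO than in MyoD-WT in Pax7+ cells, with a ratio of 0.851, and higher in Myog+ cells (1.19) and in muscle-rich cells (1.20); the opposite directions brought it here, and the difference between the cell groups was not tested. All 3 ratios are within 2-fold, and the muscle-rich one turned below 1 (log2 -0.14) with a muscle-rich gate of 2.5%.

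Nkd1 in muscle-rich cells over Pax7+ cells was 0.717 in MyoD-KO and 1.45 in MyoD-WT, and over Myog+ cells it was 0.348 in MyoD-KO and 1.26 in MyoD-WT. The opposite directions in the 2 libraries brought these here, and the difference between the libraries was not tested. With a muscle-rich gate of 10% the MyoD-WT log2 ratios became -0.48 over Pax7+ cells and -0.79 over Myog+ cells, so the opposite directions ended there; under median-of-ratios scaling the MyoD-KO log2 ratio over Pax7+ cells became 0.12.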

How the results depend on the processing

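No paired analysis was possible because each genotype has 1 library. Leaving out a replicate was not possible for the same reason. Over 11 counts of called members and up to 17 alternatives, 127 of 138 counts stayed within 1.5 times the reported count. These counts add higher and lower calls, so they do not show direction. With a minimum of 5 CPM, Tcf7 was added in Pax7+ cells as higher in MyoD-KO (ratio 2.30), which stayed within that band. Tcf7 (4.25) was also higher in MyoD-KO among the members called between muscle-rich cells at a minimum of 1 CPM. Of 587 log2 ratios of single members, 375 stayed within their counting interval, and none of those called changed sign. A minimum of 5 or 1 CPM cannot move a log2 ratio, and leaving doublets in added back only 2 MyoD-WT cells. Part of the 375 was therefore fixed, or nearly so, in advance. The count in muscle-rich cells between the libraries, reported as 1, was 2 under TMM scaling, median-of-ratios scaling and a filter of 2000 genes and 10% mitochondrial UMIs, 3 with muscle, mitochondrial and ribosomal protein genes out of the totals, with a minimum of 5 CPM and with a muscle-rich gate of 2.5%, and 5 with a minimum of 1 CPM. Muscle-rich over Pax7+ in MyoD-KO, reported as 2, was 4 with a minimum of 5 or 1 CPM. Myog+ over Pax7+ in MyoD-KO, reported as 2, was 1 with all deposited barcodes and with a Myog gate of 400 CPM. Scaling moved the median log2 ratio of all genes in Pax7+ cells from 0.08 to -0.13 (TMM) and -0.17 (median-of-ratios), and for muscle-rich over Pax7+ in MyoD-KO from -0.57 to 0.03 and 0.10. The log2 ratio of Nkd1 between the libraries in Myog+ cells ranged from -0.23 to 0.18. Removing the 6% highest doublet scores moved the log2 ratio of Lgr5 in Crabp1/Dcn-positive over Pax7+ cells from -2.93 to -6.74. Members under 10 CPM are limited by depth, as is Sp5 at 0 to 2 UMIs.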
